A study of Rattus norvegicus with 8 samples.

Results

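The regions described here are 1000-base tiles of the rat genome in which CpG methylation was high in hypothalamus and clearly lower in hippocampus. In a CpG, a cytosine is followed by a guanine, and the pair on both strands is called a dyad. Chromosomes 1 to 20 were divided into fixed tiles, and a tile was used when it held at least 3 dyads with at least 10 calls in every library. The level of a tile in a library is the methylated calls over all calls at these dyads, in percent. A tile was a member when the mean of the hypothalamus libraries was at least 80%, the mean of the hippocampus libraries was at most 65%, and every hypothalamus level lay above every hippocampus level, which held for 16.4% of the 74539 tiles whose mean over all libraries lay between 5% and 95% (the tested tiles). By this rule 645 of 95276 tiles were members, or 0.677%, and they held 3566 of 761556 dyads. The members were chosen by the CpG levels of these same 8 libraries, so their CpG difference between tissues is a description and was not tested.

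The 8 libraries were made by reduced representation bisulfite sequencing (RRBS), in which the enzyme MspI cuts DNA at sites containing a CpG, short fragments are kept, and bisulfite turns unmethylated cytosine into uracil while methylated cytosine stays. Groups of 4 libraries each came from hippocampus and from hypothalamus of male Sprague Dawley rats. From the age of 2 months these had been fed for 6 weeks with DHA (docosahexaenoic acid, which is among the omega-3 fatty acids). All 8 libraries share the strain, the sex and the diet, so tissue is the labelled contrast. The labels name no animals, and the tissue labels were not checked against marker genes here. Each library is bulk tissue, so a level of 60% can come from part of the cells, part of the alleles or both, and these cannot be told apart.

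The listed cytosines held 509259699 to 625653602 calls per hippocampus library and 467623585, 572801479, 178178404 and 259930295 calls in hypothalamus 1 to 4. At 539 dyads whose levels fell into low (under 20%), middle (35% to 65%) and high (over 80%) classes as a genotype would, the replicate 1 libraries of the 2 tissues had the same class at 97.4% of dyads and the replicate 4 libraries at 95.5%. Replicates 2 and 3 had the same class at 33.6% and 27.3%, near the other pairs. For these numbers the tissue contrast also compares libraries of unlike genotype-like classes, and the part of genotype in the differences was not tested. The tests below treat all 8 libraries as independent, which these matches put in doubt for numbers 1 and 4. At CHH cytosines followed by C, where methylation is low in mammals and calls are often read as unconverted cytosine, hippocampus 3 and 4 had levels of 1.76% and 1.85%, and the other libraries 0.310% to 1.01%. The part that incomplete conversion plays in the levels was not tested.

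CpG methylation is set by DNA methyltransferases, is copied to the new strand after replication, and covers most CpGs of mammalian genomes outside CpG islands and active regulatory elements. Tissue-specific loss of methylation is typical of enhancers and promoters in use in some of the cells of a tissue. Neurons also carry methylation outside CpG, mostly at cytosines followed by A (CA), which is laid down after birth by DNMT3A. The hippocampus is a centre of memory formation built largely of pyramidal and granule neurons, and the hypothalamus holds many small nuclei that govern hormones, feeding and body temperature.

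The 3 members of largest CpG difference are shown as letters, because their CpGs lie close together and all of them differed between the tissues. The letters are those of the genome build of the deposited files (rn5), forward strand, read from the cytosine, context and next-base columns, with n where those columns give no base and capitals at the measured CpGs. The windows are chr1:93658716-93658835, chr7:32071453-32071572 and chr3:182769063-182769182.
chr1 tile: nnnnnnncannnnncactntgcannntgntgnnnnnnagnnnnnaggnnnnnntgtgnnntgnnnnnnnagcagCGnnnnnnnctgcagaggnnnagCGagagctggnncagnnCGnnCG
chr7 tile: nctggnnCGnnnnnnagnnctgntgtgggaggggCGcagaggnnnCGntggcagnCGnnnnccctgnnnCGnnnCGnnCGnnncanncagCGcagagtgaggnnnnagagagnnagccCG
chr3 tile: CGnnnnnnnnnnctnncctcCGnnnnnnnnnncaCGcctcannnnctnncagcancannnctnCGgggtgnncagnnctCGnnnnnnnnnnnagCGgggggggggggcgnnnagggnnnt
The letters were known at 50%, 66.7% and 55% of these positions. The chr7 window holds 9 measured CpGs in 120 bases, the chr3 window 6 and the chr1 window 4.

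In the chr1 tile, chr1:93658001-93659000, hippocampus 1 to 4 had levels of 27.5%, 26.6%, 42.4% and 31.1%, against 87.5%, 85.8%, 89.6% and 90.7% in hypothalamus 1 to 4. Its lowest hypothalamus library stood 43.4 points above its highest hippocampus library, the widest gap among the members. Its 5 dyads moved as a block, with differences of 54.5 to 57.9 points between the tissue means. The 15 dyads of chr7:32071001-32072000 were less even. At 3 neighbouring dyads of that tile, positions 32071300, 32071331 and 32071368, the hypothalamus means were 93.5%, 93.9% and 46.1%, and the hippocampus means 38.4%, 38.1% and 19.3%. The dyad at 32071368 was thus far from full in hypothalamus, yet it was lower in every hippocampus library than in any hypothalamus library. In the chr3 tile, chr3:182769001-182770000, the 6 dyads differed by 38.2 to 60.3 points, and the dyad at 182769142 had 23.8% ± 5.79 in the hippocampus libraries against 84.1% ± 3.73 in those of hypothalamus (SD, n = 4 each).

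The other 2 tiles of largest difference were chr9:46989001-46990000 and chr20:14618001-14619000. In the chr9 tile hippocampus 1 to 4 had 41.2%, 35.4%, 53.0% and 47.5%, and hypothalamus 1 to 4 had 91.4%, 88.2%, 93.4% and 92.4%, a difference of 47.1 points (SE 3.98). Each of its 13 dyads, which span 174 bases, was higher in every hypothalamus library than in any hippocampus library. The chr20 tile had 46.8%, 46.6%, 45.7% and 43.8% in hippocampus and 88.4%, 92.1%, 88.5% and 93.6% in hypothalamus, a difference of 44.9 points (SE 1.48). Its hippocampus libraries lay close together, with an SD of 1.39 points against 7.64 in the chr9 tile. The plot of dyad levels along the first 4 of these tiles shows that the separation held across each measured stretch.

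**Figure D1:**
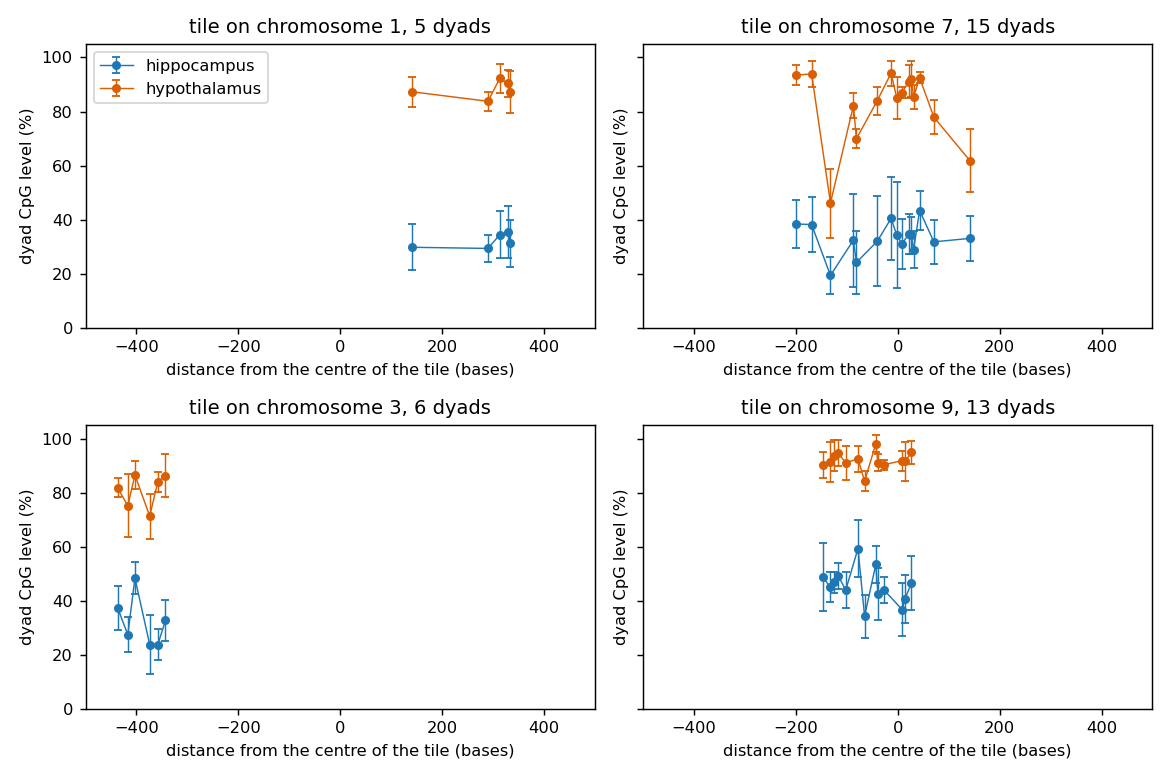
CpG level of each dyad (%) against its distance from the centre of the tile (bases) in the 4 members of largest difference, as mean and SD of 4 hippocampus (blue) and 4 hypothalamus (orange) libraries. The tissue means are apart at every dyad, and 1 dyad of the chromosome 7 tile reaches only 46.1% in hypothalamus.

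Over all 645 members the hippocampus mean had a median of 60.5% and ranged from 31.8% to 64.9975%, and the hypothalamus mean had a median of 83.6% and ranged from 80.04% to 97.5%. In all tested tiles the median hypothalamus mean was 82.6%, and in tiles of at least 80% in both tissues 91.2%. Members were thus near the typical tested tile in hypothalamus. The difference between tissues in members had a median of 24.3 points, with quartiles of 20.7 and 28.8. Most members sat close to the limits of the rule, with quartiles of 57.0% and 63.1% in hippocampus and of 81.6% and 86.7% in hypothalamus. There were 41 with a hippocampus mean of at most 50%, 4 of at most 40%, and 58 a hypothalamus mean of at least 90%. In 125 members the tissues were 30 points apart or more, and in 14 members 40 points or more. The gap between the lowest hypothalamus and the highest hippocampus library had a median of 14.0 points and was at least 10 in 481 members. In the opposite arrangement, with a hippocampus mean of at least 80%, a hypothalamus mean of at most 65% and no overlap, there were 19 tiles. The plot of tile means shows the members at the edge of a broad cloud of tiles that were high in both tissues.

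**Figure D2:**
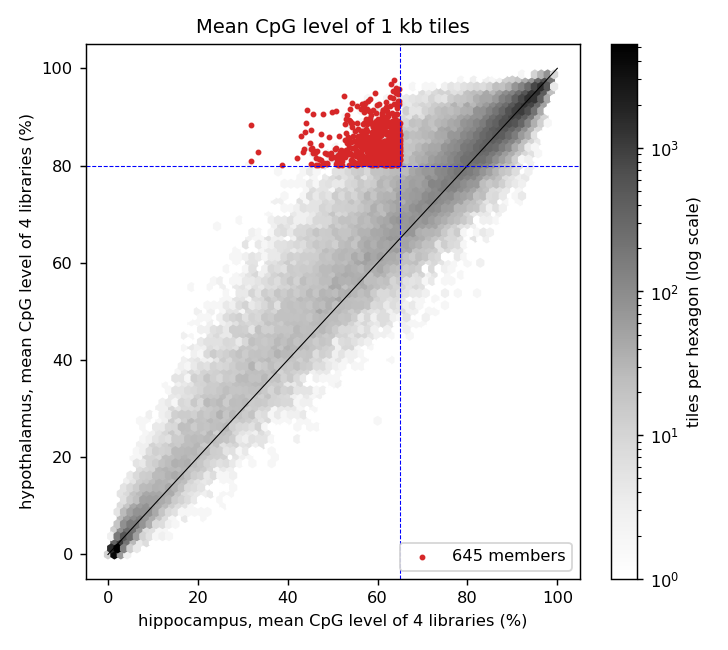
Mean CpG level (%) of each tile in hippocampus (x axis) and hypothalamus (y axis), each over 4 libraries, with the number of tiles per hexagon in grey on a log scale and the 645 members in red. Dashed lines mark the limits of 65% and 80%, and most members lie close to the corner where they meet.

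Tiles next to the limits show how fine the line was. The member closest to the hypothalamus limit, chr14:16258001-16259000, had a hypothalamus mean of 80.04% and a hippocampus mean of 51.5%, while chr18:79642001-79643000, with 79.9997% and 43.03%, was left out. At the hippocampus limit chr7:61939001-61940000 entered with 64.9975% and chr1:103188001-103189000 did not with 65.0027%. The no-overlap criterion removed 11 of 656 tiles that met both level limits. The nearest on either side were chr2:17931001-17932000, a member by a gap of 0.279 points, and chr6:106440001-106441000, where hippocampus 3 (79.0%) passed hypothalamus 3 (78.5%).

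A second group of named tiles were those lowest in hippocampus after the 5 above. The first, chr18:80063001-80064000, had 34.2%, 36.2%, 44.5% and 39.7% in hippocampus and 81.3%, 79.5%, 81.0% and 78.8% in hypothalamus. The next, chr14:36971001-36972000, had 37.4%, 39.7%, 49.4% and 42.1% in hippocampus and 83.2%, 79.8%, 79.1% and 84.2% in hypothalamus. In both, the groups were 29.6 points apart or more, hippocampus 3 was the highest hippocampus library, and all of the 6 and 7 dyads were separated without overlap.

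The tiles with the most dyads were less uniform than these. In chr11:89618001-89619000, with 19 dyads, the hippocampus levels were 63.7%, 60.4%, 69.1% and 65.4% and the hypothalamus levels 82.1%, 79.7%, 79.5% and 82.0%. Its dyads differed by between 0.784 and 37.7 points, and 9 of the 19 had no overlap between the tissues, so the tile level averaged unlike CpGs. In chr2:41530001-41531000, with 18 dyads and a difference of 21.3 points (SE 3.68), 9 dyads had no overlap and the hippocampus dyad means ran from 27.8% to 91.0%. By contrast 17 of 18 dyads in chr2:207419001-207420000 had no overlap, with tile levels of 61.9%, 55.9%, 77.4% and 61.9% in hippocampus and 93.1%, 91.3%, 91.7% and 90.8% in hypothalamus. There hippocampus 3 stood apart from the other hippocampus libraries.

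Of the 3566 dyads in members, 3539 (99.2%) were higher in hypothalamus, 3365 (94.4%) by at least 10 points, and 2960 (83.0%) without overlap. Over all dyads the no-overlap share was 6.84%, and the tile rule fixed most of this contrast, so nothing is read from it. All dyads of a tile were higher in hypothalamus in 621 members, and higher by at least 10 points in 494. Within a tile the hippocampus dyad means had a median range of 25.1 points. Members held a median of 5 dyads, 170 held 3 and 68 held 10 or more. The shallowest library of a member had a median of 96 calls and at least 30.

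In the members, which were chosen by these levels, the hippocampus libraries differed among themselves more than the hypothalamus libraries did. Over all tiles the median SD was 2.11 points in hippocampus and 2.70 in hypothalamus. Over hippocampus 1 to 4 the median member had 58.7%, 55.7%, 64.8% and 61.1%, against 83.7%, 82.9%, 83.9% and 86.6% in hypothalamus 1 to 4. Hippocampus 2 was the lowest hippocampus library in 379 members (58.8%) and in 39.9% of all tested tiles, and hippocampus 3 the highest in 411 members (63.7%) and in 31.7% of tested tiles. The SD among hippocampus libraries exceeded that among hypothalamus libraries in 463 members (71.8%) and in 35.1% of tested tiles. Levels near 80% and above leave less room for spread than levels near 60%, and the part of that in these shares was not tested. The differences between same-numbered libraries had medians of 25.5, 27.4, 19.4 and 25.8 points for numbers 1 to 4. The smallest was that of replicate 3.

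**Figure D3:**
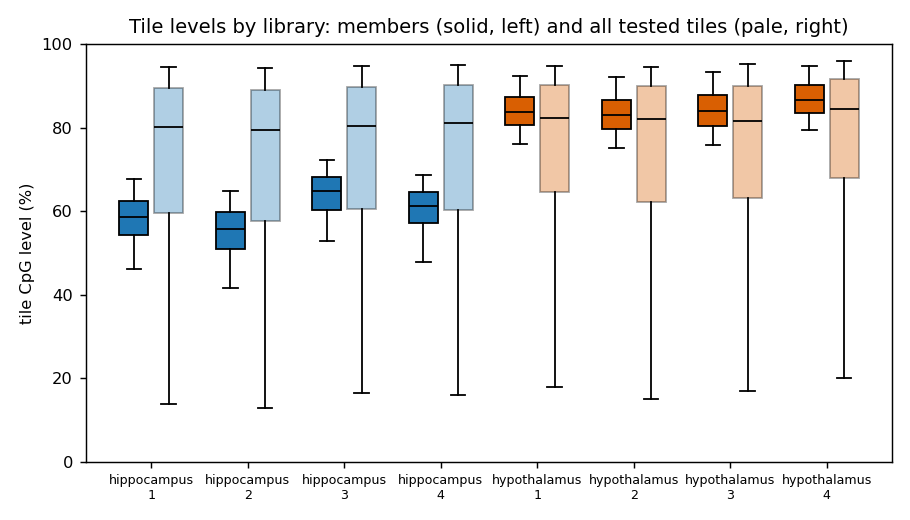
CpG level (%) of the 645 members (solid boxes, left of each pair) and of all tested tiles (pale boxes, right) in each of the 8 libraries, hippocampus in blue and hypothalamus in orange. Boxes span the quartiles with the median as a line and whiskers reach the 5th and 95th percentiles: the member medians are 55.7% to 64.8% in hippocampus and 82.9% to 86.6% in hypothalamus.

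The 2 members of largest hippocampus SD show this spread within a tile. In chr20:28111001-28112000 hippocampus 1 to 4 had 68.9%, 33.0%, 68.9% and 73.3%, against 85.5%, 83.3%, 80.8% and 88.6% in hypothalamus. Its membership rests on hippocampus 2, since the mean of the 4 was 61.0% and the other 3 were all above the limit of 65%. In chr1:8771001-8772000 the hippocampus levels were 50.8%, 34.9%, 62.3% and 72.4%, and the hypothalamus levels 82.9%, 78.3%, 83.9% and 86.7%, so the hippocampus libraries were spread over more than 30 points and the hypothalamus libraries over less than 10.

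Whether the difference reached past the tile was examined in neighbouring tiles, whose CpGs did not decide the membership of the tile beside them. Neighbours that were members themselves were left out. These tiles share libraries and contrast with the members, and an adjacent tile may share reads. A tile was called higher in hypothalamus at an adjusted p under 0.05 (quasi-binomial model with limma-moderated dispersion, Benjamini-Hochberg over 74539 tiles) and a difference of at least 10 points. Over all tested tiles 10.6% were called in this direction (9.78% of those that were not members), and 938 of 74539 were called higher in hippocampus. At so low a share, nothing is read from the counts near members of tiles called higher in hippocampus. All 645 members were among the tiles called higher in hypothalamus, from which nothing is read. Of 123 adjacent tiles 47 (38.2%) were called higher in hypothalamus and none higher in hippocampus, with a median difference of 6.47 points. Of 358 tiles 2 to 5 away 48 (13.4%) were called higher in hypothalamus and 4 lower, with a median difference of 1.82 points, against 0.999 over all tested tiles. Together 95 of 481 tiles within 5 of a member were called, and 58 of 393 (14.8%) at 6 to 10 tiles. Beyond the adjacent tile the share was thus much nearer to that of all tested tiles. For 518 members no adjacent tile could be tested.

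By distance in bases the difference was steepest next to the member. Dyads within 100 bases, 219 in number, averaged 64.4% ± 2.87 over the hippocampus libraries and 80.9% ± 1.45 over the hypothalamus libraries (SD, n = 4 each), a difference of 16.5 points. At 101 to 250 bases the difference was 10.2 points, at 251 to 500 bases 5.57 and at 501 to 1000 bases 5.16. Beyond 1000 bases, up to 20000, it was between 2.20 and 2.99 points. The levels fell too, with means of 56.2% in hippocampus and 61.7% in hypothalamus at 251 to 500 bases.

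**Figure D4:**
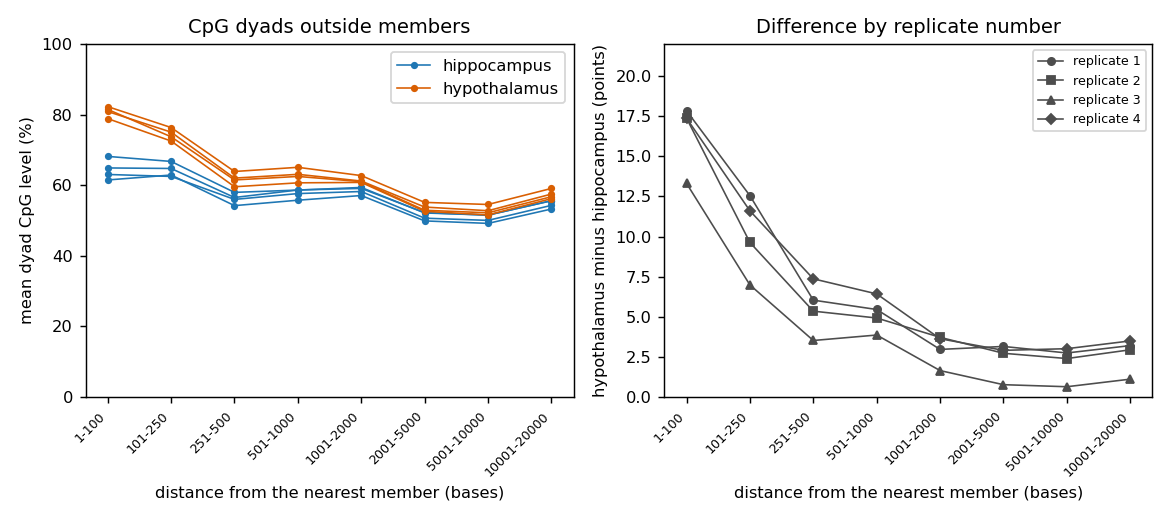
Left, mean CpG level (%) of dyads outside members by distance from the nearest member (bases), 1 line per library, hippocampus in blue and hypothalamus in orange. Right, hypothalamus minus hippocampus (points) for each replicate number, which falls from 16.5 points on average within 100 bases to 2.20 to 2.99 points beyond 1000 bases.

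Members lay on all 20 chromosomes. The median gap between neighbouring members was 1850 tiles, 28 members lay within 20 tiles of another, and there were 5 runs of 2 adjacent members and none longer. By chromosome the share of tiles that were members ran from 0.465% (chromosome 10) to 0.885% (chromosome 14). The run of largest summed difference was chr6:139010001-139011000 and chr6:139011001-139012000. The first tile had 50.7%, 38.7%, 52.4% and 49.3% in hippocampus and 90.7%, 88.7%, 95.1% and 88.2% in hypothalamus. The second had 42.5%, 46.0%, 46.8% and 45.4% in hippocampus and 82.5%, 87.3%, 89.9% and 89.4% in hypothalamus. All 9 dyads of the first and 6 of the 7 dyads of the second had no overlap between the tissues.

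By medians, the CpGs of members lay slightly closer together than in other tiles of high methylation. The median number of dyads was 5 in members and in each set compared. Member dyads spanned a median of 167 bases at 3.26 dyads per 100 bases. The medians were 182 bases and 2.79 in tiles equally high in hypothalamus but of 65% to 80% in hippocampus, 175 bases and 2.96 in tiles of at least 80% in both tissues, 181 bases and 2.88 in all tested tiles, and 181 bases and 3.18 in all tiles. A tile of low level in both tissues (under 20%) with at least 10 dyads, as a CpG island would give, lay within 5 tiles of 5.27% of members. The share was 5.99% among the 5146 tiles of 65% to 80% in hippocampus, 4.86% among the 42175 tiles high in both tissues, and 9.94% among all tested tiles.

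No gene annotation of the build of the files was used, so genes were named only where the letters of a tile matched a RefSeq promoter sequence (250 bases before to 50 after a gene's start, assembly GRCr8) in at least 40 compared letters and at 95% or more of them. Among 33469 promoters searched, a match was found for 5 members, and 3 members matched exactly 1. A match on the chromosome of the tile was found for 4 members (0.620%). The share was 1.07% in the tiles of at least 80% in hypothalamus and 65% to 80% in hippocampus. It was 1.87% in the tiles high in both tissues and 2.53% in all tested tiles. Only 11.7% of member bases had a known letter, so matches can have been missed. The single matches were Henmt1, the methyltransferase that modifies the ends of piRNAs, Krt25, a type I keratin of the hair follicle, and LOC134486509, an uncharacterized locus. Krt25 matched at 77 letters, LOC134486509 at 76 and Henmt1 at 58, with 0 unequal letters in each.

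The 250 bases before the start of the 2 named genes are shown because measured CpGs lie in them. The letters are RefSeq, GRCr8, on the strand of the gene, chr2:199275388-199275637 (+) for Henmt1 and chr10:84771198-84771447 (-) for Krt25, with the measured CpGs in capitals.
Henmt1: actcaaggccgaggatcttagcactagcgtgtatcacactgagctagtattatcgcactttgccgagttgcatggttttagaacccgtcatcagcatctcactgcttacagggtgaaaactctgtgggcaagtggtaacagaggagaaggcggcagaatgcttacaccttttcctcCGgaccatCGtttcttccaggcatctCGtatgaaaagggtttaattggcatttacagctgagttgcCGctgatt
Krt25: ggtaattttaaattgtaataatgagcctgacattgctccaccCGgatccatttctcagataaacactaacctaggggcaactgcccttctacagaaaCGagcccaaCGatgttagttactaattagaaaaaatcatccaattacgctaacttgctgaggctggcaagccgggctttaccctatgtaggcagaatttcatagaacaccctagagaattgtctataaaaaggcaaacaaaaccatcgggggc

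The Henmt1 tile, chr2:231214001-231215000 in the files' build, had 60.1%, 59.3%, 66.7% and 63.3% in hippocampus, against 87.0%, 83.2%, 85.6% and 90.8% in hypothalamus 1 to 4. Its CpG closest to the start, 8 bases before it, stood at 62.9% ± 4.42 across the hippocampus and 88.0% ± 4.33 across the hypothalamus libraries (SD, n = 4 each). The other upstream CpGs, at 74, 66 and 48 bases before the start, differed by 16.97, 24.1 and 20.1 points, and 3 CpGs at 56 to 88 bases past the start by 26.3 to 29.7 points. These CpGs made up the tile level that the rule used, so nothing is read from their common direction. The Krt25 tile, chr10:87028001-87029000, had 62.1%, 63.6%, 62.8% and 62.8% in hippocampus and 89.0%, 86.0%, 83.9% and 88.6% in hypothalamus. Its 3 CpGs, 144, 153 and 208 bases before the start, differed by 29.3, 20.3 and 19.9 points. In the LOC134486509 tile, chr3:179040001-179041000, no measured CpG lay before the start, and 5 CpGs at 37 to 237 bases past it differed by 11.3 to 21.6 points. The 2 remaining matched tiles, chr15:58326001-58327000 and chr5:161512001-161513000, matched 5 and 7 promoters on several chromosomes, so no gene is named for them.

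CA methylation was read at cytosines the rule did not use. These lie in the same tiles as the CpGs that chose the members and can share reads with them. The CA results may therefore not be independent of that choice. It was tested in 613 members among 119362 tiles with at least 3 CA positions and at least 8 methylated calls, with the same model and tissue as the only term. No tile was called at an adjusted p under 0.05 (0 of 119362, 0% called), and the lowest adjusted p was 0.176. At an unadjusted p under 0.05 stood 22 members (3.59%) and 9.11% of all tested tiles. Whether members stood above or below the background at that p varied with the fit: 52 of 613 members beside 6.83% of all tested tiles with the replicate number as a block, 49 of 613 beside 2.99% with limma on logit levels, and 16 of 613 beside 3.28% with the dispersion of each tile alone. Without hippocampus 1, 2, 3 or 4 it was 53, 62, 18 and 30 of 613 beside 21.2%, 24.5%, 2.22% and 1.70%, and without hypothalamus 1, 2, 3 or 4 it was 12, 21, 15 and 8 beside 9.88%, 2.25%, 5.45% and 8.29%. With 20 calls it was 11 of 317 beside 9.32%, and with 10 positions 8 of 292 beside 8.36%. At an adjusted p under 0.05 limma called 1 member (0.163%) and 0.0302% of all tested tiles. Summed over members, CA levels in hippocampus 1 to 4 were 1.95%, 1.51%, 4.63% and 4.79%. Those in hypothalamus 1 to 4 were 3.98%, 2.59%, 3.25% and 4.21%. Hippocampus 3 and 4, the libraries of high level at CHH cytosines followed by C, were the highest, and the tissues overlapped.

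Set against the CA level of all tested tiles in the same library, the members were lower in each hippocampus library than in any hypothalamus library. For hippocampus 1 to 4 the ratio was 0.919, 0.853, 1.01 and 0.985 (mean 0.943 ± 0.0722 SD) and for hypothalamus 1 to 4 it was 1.27, 1.44, 1.42 and 1.32 (1.36 ± 0.0803), n = 4 each. When the level at cytosines followed by C (CHH context) was subtracted instead, the tissues overlapped: members had 1.58, 1.18, 2.87 and 2.94 points in hippocampus and 2.97, 2.28, 2.84 and 3.19 points in hypothalamus. In tiles of at least 80% in hypothalamus and 65% to 80% in hippocampus the means were 1.10 ± 0.0423 and 1.28 ± 0.0576. The tissues did not overlap there either, and this set too was chosen by its CpG levels. In tiles of at least 80% in both tissues the means were 1.15 ± 0.0762 and 1.16 ± 0.0472, with overlap. CA positions above 20% in any library made up 6.82% of positions in tested members and 4.61% over all tested tiles. With these left out, the member ratios were 0.918 ± 0.0811 and 1.24 ± 0.0660. In the set of 65% to 80% in hippocampus they were then 1.08 ± 0.0454 and 1.23 ± 0.0615, so the hypothalamus means of these sets were nearly equal. In the set of at least 80% in both tissues they were 1.11 ± 0.0723 and 1.12 ± 0.0466. By tile, all hypothalamus ratios lay above all hippocampus ratios in 101 members (16.5%) and in 2.57% of all tested tiles, and below them in 6 members (0.979%) and 2.56%.

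**Figure D5:**
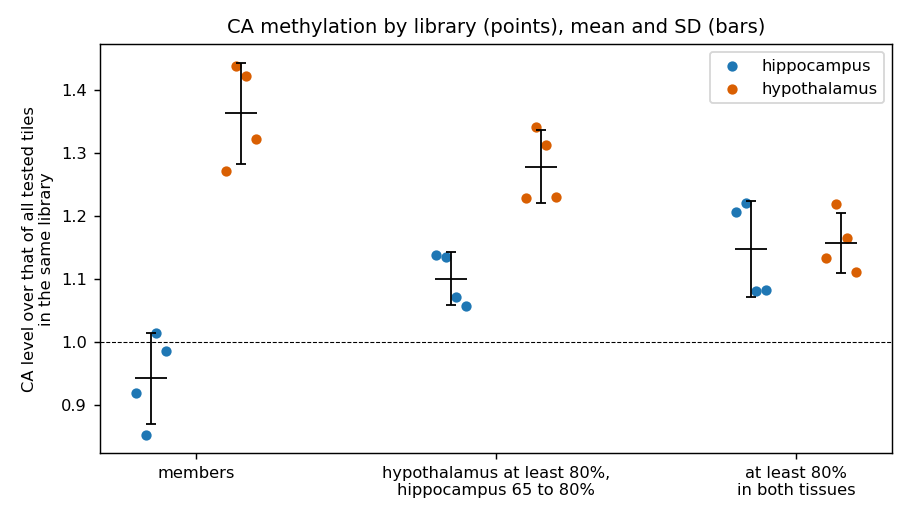
CA level of members and of 2 sets of other tiles, divided by the CA level of all tested tiles in the same library, 1 point per library with the mean and SD of 4 hippocampus (blue) and 4 hypothalamus (orange) libraries. In members the hippocampus ratios are 0.853 to 1.01 and the hypothalamus ratios 1.27 to 1.44. The tissues are also apart in tiles of at least 80% in hypothalamus and 65% to 80% in hippocampus (1.06 to 1.14 and 1.23 to 1.34). They overlap in tiles of at least 80% in both.

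When the level of each library at the CHH cytosines followed by C entered the model as a covariate, 57 of 613 members (9.30%) were called, all higher in hypothalamus, and 0.775% of all tested tiles were called in that direction. Of the tiles of at least 80% in hypothalamus and 65% to 80% in hippocampus, 90 of 4899 (1.84%) were called higher in hypothalamus. Of those of at least 80% in both tissues, 103 of 39700 (0.259%) were called so. In tiles 2 to 5 away from a member 7 of 490 were called. The count hung on the form of the covariate and on single libraries: with its logit 27 members (4.40%) and 0.466% of all tested tiles were called, in either direction, without hippocampus 1, 2, 3 or 4 in turn 23, 6, 33 and 27, and without hypothalamus 1 or 4 25 and 31. Without hypothalamus 2 or 3 it was 69 and 53. The shares of all tested tiles called, in either direction, were 0.326%, 0.0863%, 0.416% and 0.327% without hippocampus 1 to 4 and 0.342%, 1.22%, 0.736% and 0.348% without hypothalamus 1 to 4. Without a covariate, the fit on the 4 libraries of lower level (hippocampus 1 and 2, hypothalamus 2 and 3) called 6 members, all higher in hypothalamus (0.0760% of all tested tiles called in either direction). The fit on the 4 of higher level called 116, with 12 in the same direction and 104 in the opposite one, higher in hippocampus, beside 30.9% of all tiles. The 116 were 18.9% of members, below the share of all tiles. The calls over all tiles were not split by direction in these 2 fits, each of 2 libraries per tissue. Nothing about the members is therefore read from the directions.

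The lowest adjusted p under that covariate was shared by chr4:195003001-195004000 and chr8:80330001-80331000. The chr4 tile had CpG levels of 48.0%, 43.4%, 59.3% and 48.9% in hippocampus and 90.1%, 89.9%, 88.8% and 95.5% in hypothalamus. Over its 24 CA positions hippocampus 1 to 4 had 3.59%, 2.26%, 4.56% and 5.42%, and hypothalamus 1 to 4 had 10.2%, 8.55%, 7.94% and 8.21%, without overlap (limma-moderated quasi-binomial test, Benjamini-Hochberg adjusted p = 4.29e-05 with the covariate and 0.547 without it; 1.25e-05 to 1 over 27 alternatives, 14 of them past the threshold). CA methylation there was concentrated: position 195003991 averaged 6.996% over hippocampus and 33.8% over hypothalamus libraries, position 195003930 averaged 9.17% and 35.8%, and position 195003977 8.69% and 31.1%, while many positions were near 0 in both tissues. Without the first of these positions the tile means were 3.85% and 7.76%. The 27 alternatives are not independent checks. They include the fit with the covariate, fits with its logit or another covariate, and the covariate fit with positions or 1 library left out. Without a covariate, limma called 1 member, leaving out 1 library in turn 0 to 2, and the fits on 4 libraries 6 and 116. Nothing about robustness is therefore read from the number past the threshold.

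The other tile with that adjusted p, chr8:80330001-80331000, had CA levels of 1.64%, 0.854%, 5.52% and 3.61% in hippocampus and 7.45%, 7.08%, 7.41% and 8.13% in hypothalamus over 12 positions. Position 80330576 differed most, by 24.6 points, and without it the means were 2.47% and 4.73%. Positions 80330595 and 80330568 differed by 19.9 and 8.99 points. The tile had 3 of its 12 positions at least 5 points higher in hypothalamus. Its adjusted p by the same test was 4.29e-05 with the covariate and 0.547 without it (1.90e-05 to 1 over 27 alternatives, 13 of them past the threshold). The other 3 named by this readout were chr3:171267001-171268000, chr3:12088001-12089000 and chr5:146271001-146272000. Their CA means were 3.59% ± 2.09 and 8.76% ± 1.35 in the first, 2.50% ± 1.63 and 4.50% ± 0.791 in the next, and 3.98% ± 1.85 and 8.79% ± 4.25 in the last (hippocampus and hypothalamus, SD, n = 4 each). The groups did not overlap in the first. In the next, hypothalamus 2 at 3.46% lay below hippocampus 4 at 4.46%, and in the last, hypothalamus 3 at 4.89% lay below hippocampus 3 and 4 at 5.44% and 5.64%. In the first tile the position of largest difference, 171267952, had 3.49%, 43.9%, 33.3% and 0% in hypothalamus 1 to 4, so 2 libraries carried it. Without the position of largest difference the means were 3.79% and 6.92% in the first tile, 2.29% and 3.79% in the next, and 3.49% and 7.17% in the last. By the limma-moderated test with Benjamini-Hochberg adjustment their p was 0.000205, 0.000726 and 0.000789 with the covariate and 0.547, 0.549 and 0.547 without it. Over their alternatives these ran from 0.000121, 0.000432 and 0.000245 to 1, with 13 of 26, 11 of 27 and 11 of 26 past the threshold. As for the chr4 tile, the alternatives of these 3 tiles and of the chr8 tile include many fits with a covariate. Nothing about robustness is read from their numbers past the threshold either.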

How the data were processed

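RRBS was done on 8 libraries, 4 from hippocampus and 4 from hypothalamus. The authors deposited, for each listed cytosine, 2 counts, methylated calls and all calls, and a fraction that is their ratio. Each position listed had at least 10 calls. Bowtie and the build rn5 are named per the submitters' processing notes, and the sources used here do not give other steps. Depth is given in the report, and errors cover the spread between libraries, which may be technical.

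Counts of both strands of a CpG were summed to dyads and dyads to 1000-base tiles. The deposited fraction was not used. CpG and CA counts per tile were fitted with a quasi-binomial model whose Pearson dispersion, at least 1, was moderated with limma 3.58.1 (R 4.3.3, Python 3.11.15), with an F test and Benjamini-Hochberg adjustment at 0.05 over all tested tiles. The CpG fit with tissue as the only term was run on simulated calls. The CA fits and the fits with a covariate were not. Tissue was the only term, and covariates, filters and left-out libraries were alternatives. Letters were rebuilt from the base and context columns, with 0 conflicts.

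Tiles named are the 5 of largest difference, the 3 with most dyads, the 2 lowest in hippocampus, those nearest each limit, the longest run, the 2 of largest hippocampus SD, up to 5 called for CA and those matched to a promoter. The 5 called for CA come from the fit with the covariate, since the fit without it called none. The members and lists were chosen with earlier results of these data known.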

Additional observations from a re-analysis of the deposited data

Results flagged for a closer look

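In 60 groups of 4 library levels of the named tiles, 2 held a library far from the others (Dixon's 95% limit). In groups not chosen by their levels, chance would flag about 1 in 20, or 3. The named tiles were chosen by their levels, and chr20:28111001-28112000 for its hippocampus SD, so nothing is read from the count. In chr20:28111001-28112000 hippocampus 2 stood at 33.0% and the other hippocampus libraries at 68.9% to 73.3%. In chr5:161512001-161513000 hypothalamus 2 stood at 83.5% and the other hypothalamus libraries at 79.3% to 79.97%.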

How the results depend on the processing

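Of the 645 members 230 were among the 297 found with 20 calls required in every library and 257 among the 426 found on the forward strand only, and with at least 5 dyads per tile 344 were found. Leaving out 1 library in turn gave 537 to 796. The count of called tiles within 5 of a member, 95, was 19.8% of 481 tested, beside 10.6% of all tiles. It became 61 of 234 with 20 calls (26.1%, beside 11.2%), 30 with a 20-point limit (6.24%, beside 2.79%) and 48 of 358 at 2 to 5 tiles only (13.4%), and ran from 87 to 103 without 1 library. The difference of chr3:12088001-12089000, 19.1 points, became 12.9 with 20 calls and 26.2 with dyads weighted equally. The median difference of the named tiles, 26.6 points, stayed between 24.02 and 28.3.

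No member was called for CA methylation, and the count ran from 0 to 2 without 1 library. The 2, 1 in each direction, came without hippocampus 2 (0.326% of members, beside 2.78% of all tested tiles). It was 1 with limma (0.0302% of all tested tiles called), 57 with the CC covariate (0.881%, in either direction), 27 with its logit (0.466%), 58 with the logit of the CA level (0.919%), and 21 with the CC covariate and positions above 20% left out (0.596%). It was 6 in the 4 libraries of lower CC level (0.0760% of all tested tiles called). In the 4 of higher CC level it was 116 (18.9% of members, beside 30.9% of all tested tiles), of which 104 were higher in hippocampus and 12 in hypothalamus. Among those of higher CC level, hippocampus 3 and 4 also stood above hypothalamus 1 and 4 in that level. With the covariate it was 23, 6, 33 and 27 without hippocampus 1, 2, 3 or 4 and 25, 69, 53 and 31 without hypothalamus 1, 2, 3 or 4. The covariates and both sets of 4 libraries were chosen after seeing the data, except the plain CC level. The cause was not tested.

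Same-numbered libraries had correlations of deviations of 0.167, 0.0675, 0.0886 and 0.170 for numbers 1 to 4, and each library correlated best with its own number. Genotype-like classes matched for numbers 1 (97.4%) and 4 (95.5%) but not for numbers 2 (33.6%) and 3 (27.3%). The numbers were not taken as pairs in the tests, and the replicate block also pairs numbers 2 and 3. With the replicate block 98 of 481 tiles near members were called (20.4%, beside 11.6% of all tiles), and 0 of 613 members for CA (beside 0.0101%, or 12 tiles).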
